A study of Mus musculus with 6 samples.

Results

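Apoptosis and p53 target genes of the mouse optic nerve were followed in total RNA sequencing of 3 hND6 and 3 mCherry libraries. The 10 genes were taken by symbol from a table of 52636 genes as listed p53 targets and members of the BCL2 family. They are Trp53 and Mdm2, the p53 targets Cdkn1a, Ccng1, Phlda3, Bax, Bbc3 and Pmaip1, and the pro-survival genes Bcl2 and Bcl2l1. The hND6 libraries carry the treatment label mutant human ND6T14484C; ND6 is a mitochondrially encoded protein of respiratory complex I. The other libraries are labelled mCherry, after a red fluorescent protein. Per the labels' protocols a lentivirus with the mutant gene was injected into the eyes, and the same text stands beside both groups. What the mCherry eyes received, the promoter of the transgene, and the strain, sex and age of the mice are not given in the sources used here. Nor do the labels tie each library to an animal of its own, so p-values measure library-to-library spread, part of which may be technical.

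The protein p53, encoded by Trp53, is a transcription factor that is held at low activity by the ubiquitin ligase Mdm2. DNA damage and other stresses release it, and it then raises transcription of genes that stop the cell cycle or promote death, and of Mdm2 itself. In the mitochondrial pathway of apoptosis, BH3-only proteins such as Bbc3 and Pmaip1 neutralise the pro-survival proteins Bcl2 and Bcl2l1, which frees Bax to permeabilise the outer mitochondrial membrane. Because p53 is controlled largely at the protein level, its own message does not report its activity directly, whereas the messages of its targets, Mdm2 among them, are closer to it. In retinal ganglion cells, whose axons form the optic nerve, Bax and Bbc3 are known from mouse injury models to take part in death of the cell body. The cell bodies themselves lie in the retina and not in the nerve.

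The nerve was represented by its glia. The 6 oligodendrocyte markers (5 of 6 higher in hND6) summed to 6394 to 7424 FPKM in hND6, against 4478 to 6723 FPKM in mCherry. The 5 astrocyte markers (2 of 5 higher in hND6) summed to 1604 to 1945 FPKM in hND6, against 1202 to 1611 FPKM in mCherry. Most of the astrocyte sum was Gfap, which averaged 1474 FPKM in hND6 and 1130 FPKM in mCherry. FPKM divide the fragments of a gene by its exon length and by sequencing depth, so levels of different genes can be compared per length. The 6 ganglion cell markers (2 of 6 higher in hND6) summed to 28.3 to 35.2 FPKM in hND6, against 38.0 to 47.4 FPKM in mCherry, without overlap. Nearly all of this was Rbpms, Sncg and Nefl, while the transcription factors Pou4f1, Pou4f2 and Isl2 were at most 0.242 FPKM in every library. Rbpms, Sncg and Nefl each overlapped between the groups when taken singly. Rbpms was lower in hND6 on average, Sncg was higher (5.33 FPKM in hND6, 4.32 FPKM in mCherry), and Nefl was highest in mCherry 3 (20.6 FPKM). The 8 neuron markers stood apart in hND6 1, where they summed to 201 FPKM, and in mCherry 3, at 539 FPKM, with 28.0 to 52.8 FPKM in the other 4 libraries. The 6 photoreceptor markers summed to 180 FPKM in hND6 2 and to at most 6.07 FPKM elsewhere. Erythroid markers (5 of 5 higher in hND6) summed to 1363 to 2602 FPKM in hND6, against 179 to 467 FPKM in mCherry. B and plasma cell markers (8 of 8 higher in hND6) summed to 52.8 to 162 FPKM in hND6, against 7.15 to 17.2 FPKM in mCherry. The 6 microglia markers (6 of 6 higher in hND6) summed to 287 to 337 FPKM in hND6, against 197 to 297 FPKM in mCherry, and the 5 fibroblast and meninges markers (5 of 5 higher) to 202 to 225 FPKM in hND6, against 136 to 214 FPKM in mCherry. In bulk tissue, fewer cells of a type and less RNA per cell cannot be told apart.

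The start regions of the p53 targets are shown because p53 acts on them through a short sequence. A full site is made of 2 copies of a decamer with up to 13 bases between them. The decamer is 3 purines, C, 2 bases that are A or T, G and 3 pyrimidines, a pattern that reads the same on both strands. A single match is thus only a part of a site. RefSeq windows of GRCm38.p6, from 250 bases before to 50 after a start, were searched for 9 of the genes. Capitals mark each full match to the decamer, and all other bases are in lower case. The 3 targets Cdkn1a (chr17:29090729-29091028, plus strand), Ccng1 (chr11:40755237-40755536, minus strand) and Bax (chr7:45466849-45467148, minus strand) hold a match. Phlda3 (chr1:135765835-135766134, plus strand) and Bbc3 (chr7:16309333-16309632, plus strand) hold none, and are shown because their libraries separated the groups.
Cdkn1a, upstream start: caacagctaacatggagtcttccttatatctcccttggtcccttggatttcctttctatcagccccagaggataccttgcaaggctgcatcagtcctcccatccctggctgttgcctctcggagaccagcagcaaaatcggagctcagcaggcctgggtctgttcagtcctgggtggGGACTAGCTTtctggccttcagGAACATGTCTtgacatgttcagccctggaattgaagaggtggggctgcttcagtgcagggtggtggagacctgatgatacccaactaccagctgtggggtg
Ccng1: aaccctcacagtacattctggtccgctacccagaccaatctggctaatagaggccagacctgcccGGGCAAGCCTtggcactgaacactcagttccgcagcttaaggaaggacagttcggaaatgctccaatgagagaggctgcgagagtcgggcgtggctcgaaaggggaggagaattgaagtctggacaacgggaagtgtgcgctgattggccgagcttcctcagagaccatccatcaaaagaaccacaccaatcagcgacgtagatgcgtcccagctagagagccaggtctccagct
Bax: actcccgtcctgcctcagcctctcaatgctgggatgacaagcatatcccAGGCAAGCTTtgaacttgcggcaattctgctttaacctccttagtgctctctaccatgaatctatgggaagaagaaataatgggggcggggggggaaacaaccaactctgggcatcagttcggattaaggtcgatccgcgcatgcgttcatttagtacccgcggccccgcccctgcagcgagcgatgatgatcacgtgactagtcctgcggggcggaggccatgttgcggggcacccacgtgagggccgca
Phlda3: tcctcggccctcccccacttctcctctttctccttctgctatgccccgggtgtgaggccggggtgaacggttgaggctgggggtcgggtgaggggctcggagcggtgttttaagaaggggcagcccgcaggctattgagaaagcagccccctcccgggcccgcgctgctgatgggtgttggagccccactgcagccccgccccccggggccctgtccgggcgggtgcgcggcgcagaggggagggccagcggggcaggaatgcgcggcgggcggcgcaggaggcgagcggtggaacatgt
Bbc3: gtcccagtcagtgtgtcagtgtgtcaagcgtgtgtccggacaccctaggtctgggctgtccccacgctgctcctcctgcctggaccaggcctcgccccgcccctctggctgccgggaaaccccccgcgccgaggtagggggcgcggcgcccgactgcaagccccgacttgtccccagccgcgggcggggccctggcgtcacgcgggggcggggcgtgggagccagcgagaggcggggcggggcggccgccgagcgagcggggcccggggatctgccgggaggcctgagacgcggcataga
The upstream Cdkn1a window holds 2 matches, whose first bases lie at -73 and -51 relative to the start, with 12 bases between the matches. The second match is followed directly by tgacatgttc, which departs from the decamer only at its first base and so is not marked. Which decamers p53 uses there was not tested. The window at the downstream Cdkn1a start (chr17:29093519-29093818) holds none. Single matches begin at -185 for Ccng1, -201 for Bax, -75 for Trp53 and -186 for Mdm2. A match occurs in 2745 of 32851 RefSeq windows (8.36%), and 2 matches within 13 bases of each other in 24 (0.0731%). Counted the same way, 5 of the 14 windows of these 9 genes (35.7%) hold a match and 1 (7.14%) holds such a pair. The 5 genes with a match had log2 fold changes, hND6 over mCherry, from -0.07 (Mdm2) to 0.31 (Ccng1), and the 4 tested genes without one from -0.28 (Bbc3) to 0.53 (Phlda3). A match is a description of the letters in the window and no match says nothing about p53 binding elsewhere.

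Between the groups, none of these genes passed the test. The 9 of them that averaged 0.5 FPKM or more were read from a limma fit over 16157 genes on log2(FPKM + 0.5), with Benjamini-Hochberg adjusted p-values called under 0.05. In that fit 0 of 9 members passed in either direction, against 0.0433% of all tested genes, with 0% of all passing as lower. At an unadjusted p under 0.05, 1 of 9 (Phlda3) lay higher, against 9.11% of all tested genes, and 0 of 9 lower, against 6.05% of all, or 15.2% of all in either direction. Limma's voom on reads recovered from the FPKM also called 0 of 9, with 1 at an unadjusted p under 0.05. That unadjusted count was 3 of 9 without mCherry 3, beside 3562 of all 16157 genes. It was 2 of 9 without mCherry 1, beside 2271 of all 16157. By sign, 4 lay higher and 5 lower in hND6. Their median log2 fold change was -0.06, beside -0.01 for all tested genes, of which 48.6% lay higher. Without mCherry 1 the members split 5 higher to 4 lower (median 0.03), and without mCherry 2 likewise 5 to 4 (median 0.0091). With every library scaled to one constant sum (TPM scale), which moved the median over all tested genes by -0.13 to -0.14, the members kept 4 higher and 5 lower with a median of -0.21. On that scale Cdkn1a was at 0.07, Bax at 0.06, Ccng1 at 0.17, Trp53 at -0.21, Mdm2 at -0.21, Bcl2 at -0.38 and Bcl2l1 at -0.36. Phlda3 was at 0.38 and Bbc3 at -0.40, the 2 of 9 at an unadjusted limma p under 0.05 there, beside 2729 of all 16157 genes. All 3 hND6 libraries lay above all 3 mCherry libraries for 1 of 9 (Phlda3; 12.6% of all tested genes) and below them for 1 of 9 (Bbc3; 10.2% of all), shares near the background. Pmaip1 did not reach the level needed for the fit.

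**Figure D1:**
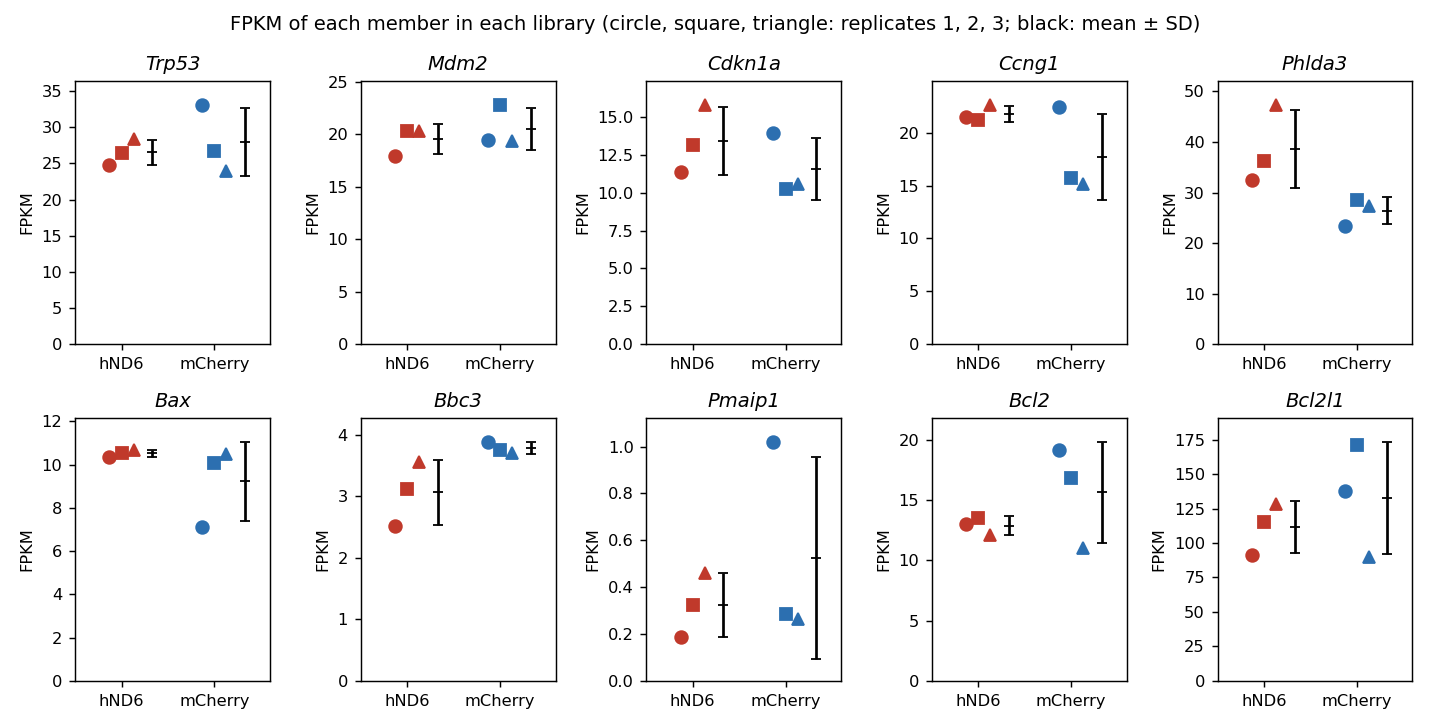
FPKM (vertical axis, from 0) of the 10 genes in the 3 hND6 (red, left) and 3 mCherry (blue, right) libraries; circles, squares and triangles are replicates 1, 2 and 3, and black marks are mean ± SD. Phlda3 is the gene whose hND6 libraries (32.4 to 47.3 FPKM) all lie above mCherry (23.4 to 28.6 FPKM), and Bbc3 the one whose hND6 libraries (2.51 to 3.56 FPKM) all lie below it (3.71 to 3.89 FPKM).

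The genes covered a wide range of levels. Bcl2l1 was the most abundant at 122 ± 30.6 FPKM over the 6 libraries (SD, n = 6), and its lowest library (90.0 FPKM) lay above the highest of any other member (47.3 FPKM). It stood above 98.6% of tested genes. Next came Phlda3 at 32.5 FPKM on average and Trp53 at 27.2 FPKM, whose library ranges overlap. Then came Mdm2 (20.0 FPKM), Ccng1 (19.7 FPKM), Bcl2 (14.3 FPKM), Cdkn1a (12.5 FPKM) and Bax (9.88 FPKM), each overlapping its neighbours among these 5. The lowest Trp53 library (24.0 FPKM) lay above the highest Mdm2 library (22.8 FPKM). Bbc3 at 3.42 ± 0.519 FPKM stayed below every Bax value, and Pmaip1 at 0.424 ± 0.306 FPKM below every Bbc3 value (SD, n = 6 each). The BH3-only genes that p53 is known to induce were thus the lowest of the set.

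Trp53 (chr11:69580359-69591872 of mm10, plus strand) and its inhibitor Mdm2 (chr10:117688875-117710758, minus strand) differed little between the groups. Trp53 had 24.8, 26.5 and 28.3 FPKM in hND6 replicates 1 to 3, against 33.1, 26.7 and 24.0 FPKM in mCherry replicates 1 to 3. The groups overlapped, with mCherry 1 highest and mCherry 3 lowest of all 6. The mean was 26.5 ± 1.76 FPKM (SD, n = 3) in hND6, against 27.9 ± 4.67 FPKM (SD, n = 3) in mCherry, with a log2 fold change of -0.06 with a 95% interval of -0.38 to 0.25 (limma adjusted p = 0.85). A processed copy, Trp53-ps, is listed at 0 in all 6 libraries, and how reads that match both were counted is not stated. Mdm2 had 17.9, 20.4 and 20.4 FPKM in hND6 and 19.4, 22.8 and 19.3 FPKM in mCherry. It was the steadiest member, with its highest library 1.27 times its lowest. The log2 fold change was -0.07 (95% interval -0.31 to 0.17, limma adjusted p = 0.786). Each sign turned when 1 library was left out: Trp53 was at 0.064 without mCherry 1 and Mdm2 at 0.0091 without mCherry 2.

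Among the targets that act on the cell cycle or on survival signalling, all 3 lay higher in hND6 on average and none passed. Phlda3 (chr1:135766119-135769136, plus strand) encodes a PH-domain protein that restrains the kinase Akt. Its level was 32.4, 36.1 and 47.3 FPKM in hND6, against 23.4, 28.6 and 27.3 FPKM in mCherry. The 2 groups did not overlap, and hND6 3 was the highest library. The mean was 38.6 ± 7.75 FPKM (SD, n = 3) in hND6, against 26.4 ± 2.69 FPKM (SD, n = 3) in mCherry. The log2 fold change was 0.53 ± 0.16 (SE), with a 95% interval of 0.15 to 0.90 (limma adjusted p = 0.241). It was higher in 3 of 3 hND6 libraries and ranked 921 of 16157 genes by p. Its value ran from 0.37 without hND6 3 to 0.64 without hND6 1, and was 0.35 once the trend of values with gene span (the length of a gene on the chromosome) was removed from each library. The erythroid and B and plasma cell markers given above lay higher in hND6 as well, also without overlap. Microglia and fibroblast markers lay higher on average, with sums that overlap between the groups; of the microglia markers P2ry12 had 21.4, 22.9 and 21.5 FPKM in hND6, against 14.03, 15.7 and 15.0 FPKM in mCherry. The part of these markers in the Phlda3 difference was not tested.

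Ccng1 (chr11:40748552-40755311, minus strand), which encodes cyclin G1, a regulator of Mdm2 activity, had 21.5, 21.2 and 22.6 FPKM in hND6, against 22.4, 15.7 and 15.1 FPKM in mCherry. The hND6 libraries lay close together and mCherry 1 lay among them, while the other mCherry libraries were lower. The log2 fold change was 0.31 (95% interval -0.06 to 0.69, limma adjusted p = 0.397). Without mCherry 1 it was 0.49 (limma adjusted p = 0.267, over all alternatives 0.267 to 0.797). Cdkn1a (chr17:29093772-29100722, plus strand), the inhibitor p21 that halts the cell cycle, had 11.3, 13.1 and 15.8 FPKM in hND6, against 13.9, 10.2 and 10.6 FPKM in mCherry. Both groups spread widely and overlapped, with hND6 3 highest and mCherry 2 lowest. The mean was 13.4 ± 2.24 FPKM (SD, n = 3) in hND6, against 11.6 ± 2.03 FPKM (SD, n = 3) in mCherry, with a log2 fold change of 0.21 (95% interval -0.19 to 0.61, limma adjusted p = 0.6). With 1 library left out the value ran from 0.09 (without hND6 3) to 0.34 (without mCherry 1).

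**Figure D2:**
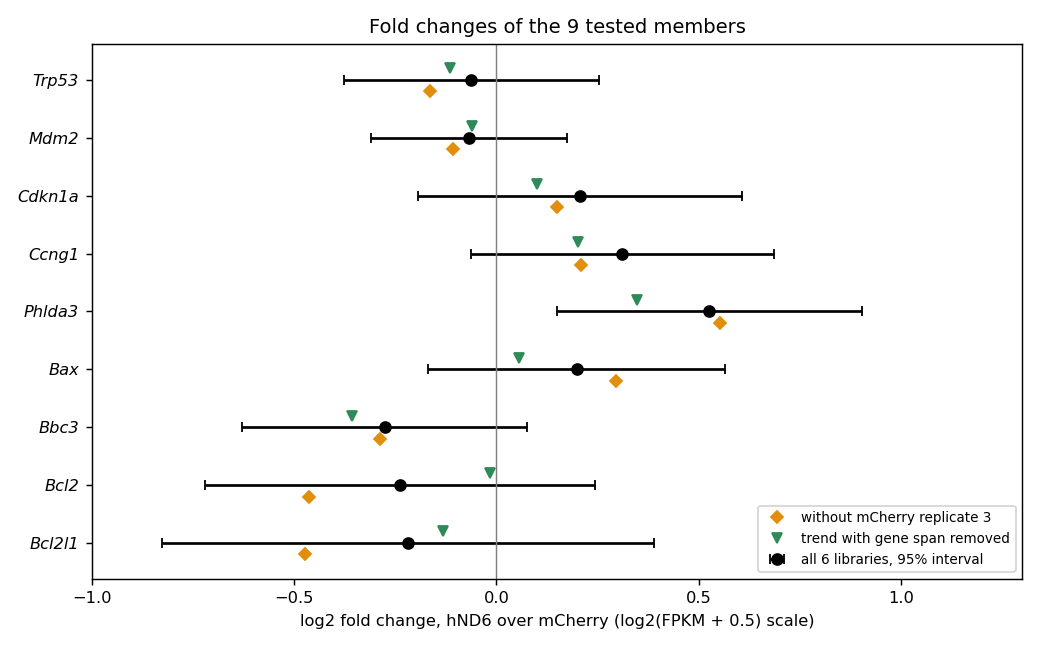
Log2 fold changes, hND6 over mCherry, of the 9 tested genes on the log2(FPKM + 0.5) scale (horizontal axis); black points and bars are limma estimates and 95% intervals over all 6 libraries, orange diamonds leave out mCherry 3 and green triangles are fits after the span trend was taken out of each library. The interval of Phlda3 (0.15 to 0.90) lies above 0 before adjustment for the number of genes, the other 8 intervals cross 0, and Bcl2 lies at -0.46 without mCherry 3 and at -0.02 with the span trend removed.

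The pro-death members of the BCL2 family did not move together. Bax (chr7:45461867-45466831, minus strand), which forms the pore in the outer mitochondrial membrane, had 10.4, 10.5 and 10.7 FPKM in hND6, against 7.13, 10.1 and 10.5 FPKM in mCherry. Its hND6 libraries were nearly equal, and mCherry 1 alone stood low. The mean was 10.5 ± 0.163 FPKM (SD, n = 3) in hND6, against 9.23 ± 1.83 FPKM (SD, n = 3) in mCherry, with a log2 fold change of 0.20 (95% interval -0.17 to 0.57, limma adjusted p = 0.582). Without mCherry 1 it was 0.03. Another gene on the same strand, Gm45808, covers 848 bases of Bax in the deposited gene table, and reads that fall in both may not have been counted.

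Bbc3 (chr7:16309616-16318205, plus strand), the BH3-only protein PUMA, had 2.51, 3.12 and 3.56 FPKM in hND6, against 3.89, 3.76 and 3.71 FPKM in mCherry. All hND6 libraries lay lower, and hND6 3 came close to the mCherry libraries, which were nearly equal. These values rest on 112 to 156 reads in hND6 and 173 to 226 reads in mCherry. The mean was 3.06 ± 0.527 FPKM (SD, n = 3) in hND6, against 3.78 ± 0.0920 FPKM (SD, n = 3) in mCherry, with a log2 fold change of -0.28 ± 0.15 (SE; 95% interval -0.63 to 0.08; limma adjusted p = 0.42). Without hND6 1 the value was -0.16. Pmaip1 (chr18:66458604-66465550, plus strand), the BH3-only protein NOXA, had 0.188, 0.325 and 0.460 FPKM in hND6, against 1.02, 0.285 and 0.265 FPKM in mCherry. That is 17, 17 and 26 reads in hND6 and 82, 25 and 18 reads in mCherry, with mCherry 1 far above the other 5 libraries. In a fit without a filter on low values its log2 fold change was -0.25 (95% interval -1.003 to 0.51, limma adjusted p = 0.786).

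The pro-survival genes were the members with the widest intervals in the fit. Bcl2l1 (chr2:152780672-152830666, minus strand), which encodes Bcl-xL, had 91.0, 115 and 128 FPKM in hND6, against 138, 171 and 90.0 FPKM in mCherry. Bcl2 (chr1:106538178-106714274, minus strand), the founding member of the family, had 13.03, 13.5 and 12.1 FPKM in hND6, against 19.2, 16.8 and 11.01 FPKM in mCherry. In both genes mCherry 3 was the lowest library of all and the other mCherry libraries were the highest. Bcl2l1 averaged 111 ± 18.8 FPKM (SD, n = 3) in hND6, against 133 ± 40.6 FPKM (SD, n = 3) in mCherry, with a log2 fold change of -0.22 (95% interval -0.83 to 0.39, limma adjusted p = 0.721). Bcl2 averaged 12.9 ± 0.755 FPKM (SD, n = 3) in hND6, against 15.6 ± 4.18 FPKM (SD, n = 3) in mCherry, with a log2 fold change of -0.24 (95% interval -0.72 to 0.24, limma adjusted p = 0.612).

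The library mCherry 3, which held the most neuron marker RNA and the least oligodendrocyte marker RNA (4478 FPKM), moved both values when left out. Without it the log2 fold change was -0.46 for Bcl2 (limma adjusted p = 0.0823, over all alternatives 0.0823 to 0.992) and -0.47 for Bcl2l1 (adjusted p = 0.198, over all alternatives 0.198 to 0.987). Without mCherry 2 the value of Bcl2l1 was -0.01, and without mCherry 1 that of Bcl2 was -0.08. The lowest hND6 library for Bcl2l1 was hND6 1, the other library with raised neuron markers. For Bcl2 it was instead hND6 3 (12.1 FPKM), whose neuron markers summed to 52.8 FPKM, while hND6 1 had 13.03 FPKM. The part of these markers in the levels of Bcl2 and Bcl2l1 was not tested.

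Bax was also set against its inhibitors within each library, a measure that library scaling does not move. The ratio of Bax to Bcl2 FPKM was 0.794, 0.777 and 0.886 in hND6, against 0.372, 0.600 and 0.953 in mCherry. The ratio of Bax to Bcl2l1 FPKM was 0.114, 0.0912 and 0.0835 in hND6, against 0.0517, 0.0589 and 0.117 in mCherry. In both ratios mCherry 3 lay above every hND6 library and the other mCherry libraries lay below them. On the log2 scale hND6 exceeded mCherry by 0.45 for Bax to Bcl2 (-0.29 ± 0.10 in hND6, -0.74 ± 0.68 in mCherry) and by 0.43 for Bax to Bcl2l1 (-3.39 ± 0.23 in hND6, -3.82 ± 0.63 in mCherry; SD, n = 3 each). Exact two-sided permutation tests gave p = 0.4 for each, where the smallest p that 3 against 3 libraries allow is 0.1, so neither difference exceeded the spread between libraries. Without mCherry 3 the differences were 0.79 and 0.79, and without mCherry 1 they were 0.11 and 0.20. Without mCherry 2 that of Bax to Bcl2l1 was 0.30. The genes differ in span, at 4.965 kb for Bax, 49.995 kb for Bcl2l1 and 176 kb for Bcl2. With the span trend removed from each library, log2 fold changes were 0.06 for Bax, -0.02 for Bcl2 and -0.13 for Bcl2l1. In the main fit they were 0.20, -0.24 and -0.22. The ratios were not computed after that removal, and the part of gene span in them was not tested.

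**Figure D3:**
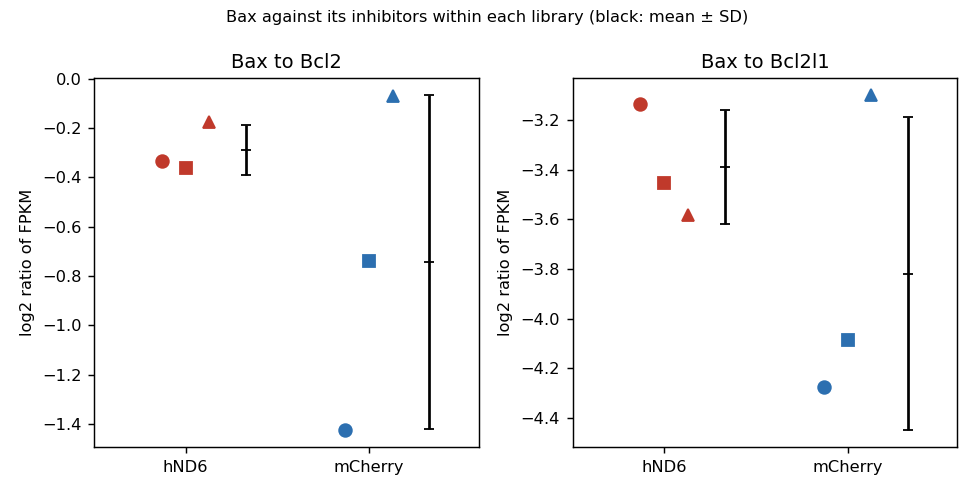
Log2 ratio of FPKM (vertical axis) of Bax to Bcl2 (left) and of Bax to Bcl2l1 (right) in each hND6 (red) and mCherry (blue) library; circles, squares and triangles are replicates 1, 2 and 3, and black marks are mean ± SD. The mCherry libraries spread around the hND6 libraries in both panels, from -1.43 to -0.07 for Bax to Bcl2 and from -4.27 to -3.10 for Bax to Bcl2l1.

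Fold changes followed the span of a gene on the chromosome across the whole table. Among tested protein-coding genes the median log2 fold change was 0.17 for the 2642 spanning 3 to 10 kb and -0.20 for the 1534 spanning 100 to 300 kb. Phlda3 (3.02 kb), Bax (4.965 kb), Ccng1 (6.76 kb) and Cdkn1a (6.95 kb) lay higher in hND6, and Bcl2l1 (49.995 kb) and Bcl2 (176 kb) lower. Bbc3, with a span of 8.59 kb, lay lower at -0.28. After the span trend was removed, Bax was at 0.06, Cdkn1a at 0.10, Ccng1 at 0.20, Bcl2l1 at -0.13 and Bcl2 at -0.02, closer to 0 than before. Phlda3 was at 0.35 and Bbc3 at -0.36, about equally far from 0, while Mdm2 was at -0.06 and Trp53 at -0.11. No member had an unadjusted p under 0.05 in that fit.

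**Figure D4:**
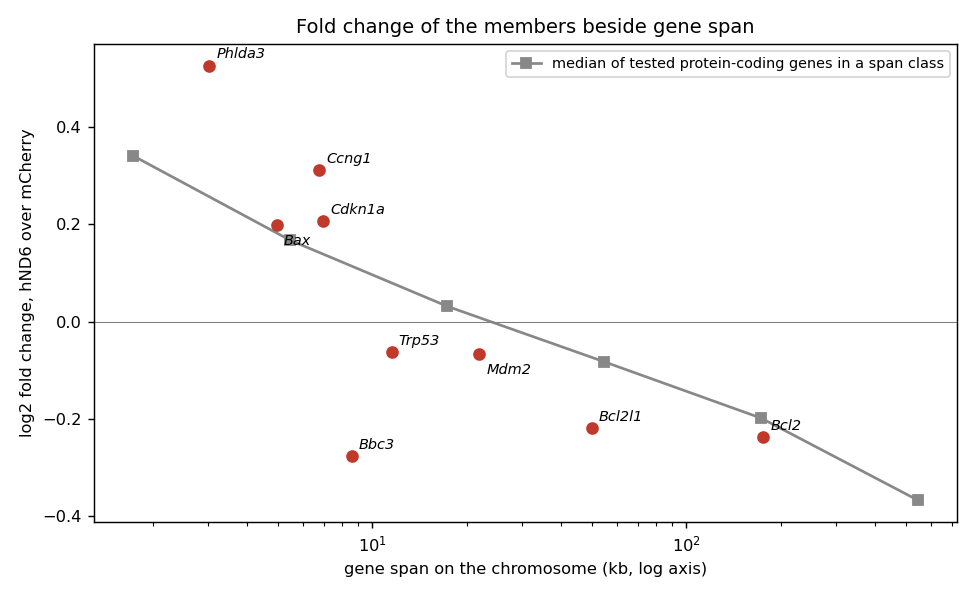
Log2 fold change, hND6 over mCherry (vertical axis), of the 9 tested genes (red) against gene span in kb (horizontal log axis); grey squares joined by a line are medians of tested protein-coding genes in 6 span classes. The class medians fall with span, from 0.34 under 3 kb to -0.37 over 300 kb, Phlda3 lies above the line and Bbc3 below it.

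Other p53 targets gave no common direction. Of 28 listed genes 24 were tested, 13 lay higher and 11 lower (median 0.02), and none passed. At an unadjusted p under 0.05, 4 of 24 lay higher and 1 of 24 lower, against 9.11% and 6.05% of all tested genes. The split was 16 higher to 8 lower without mCherry 1 (median 0.04), 11 to 13 without hND6 3 (median -0.04) and 9 to 15 on the TPM scale (median -0.12). Of smallest p were Dcxr, a carbonyl reductase, at 9.83 ± 1.07 FPKM (SD, n = 3) in hND6, against 6.79 ± 0.603 FPKM (SD, n = 3) in mCherry (limma adjusted p = 0.179), and Perp, a junction protein that takes part in p53-dependent death, at 11.8 ± 0.886 FPKM (SD, n = 3) in hND6, against 7.49 ± 2.33 FPKM (SD, n = 3) in mCherry (adjusted p = 0.25). Polk, a DNA polymerase that copies past lesions, had 7.08 ± 0.326 FPKM (SD, n = 3) in hND6, against 9.23 ± 1.37 FPKM (SD, n = 3) in mCherry (limma adjusted p = 0.279). Dcxr and Perp lay higher and Polk lower in 3 of 3 hND6 libraries. In the whole list 4 of 24 lay wholly above mCherry and 3 of 24 wholly below, against 12.6% and 10.2% of all tested genes. Gdf15, a secreted stress factor, was at most 0.208 FPKM in every library, under the level tested.

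Regulators of p53 lay mostly lower. Of 16 listed 13 were tested, 2 lay higher and 11 lower (median -0.13, against 51.4% lower among all tested genes), and none passed. At an unadjusted p under 0.05, 1 of 13 lay lower, against 6.05% of all tested genes. Their median span was 66.7 kb, against 20.2 kb for all tested genes, and with the span trend removed the split was 6 higher to 7 lower (median -0.02). Without mCherry 1 it was 5 higher to 8 lower. Rfwd2, a ubiquitin ligase for p53, had 17.8, 15.5 and 16.9 FPKM in hND6, against 21.7, 23.4 and 19.2 FPKM in mCherry, lower in 3 of 3 hND6 libraries (log2 fold change -0.35, limma adjusted p = 0.239). Mdm4, the partner of Mdm2 in inhibiting p53, had 24.5 ± 0.767 FPKM (SD, n = 3) in hND6, against 29.6 ± 4.02 FPKM (SD, n = 3) in mCherry (limma adjusted p = 0.347). Kat5, an acetyltransferase that modifies p53, lay higher at 16.8 ± 0.472 FPKM (SD, n = 3) in hND6, against 14.8 ± 0.938 FPKM (SD, n = 3) in mCherry (limma adjusted p = 0.347).

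The rest of the BCL2 family was also without a called gene. Of 10 pro-death members, all tested, 4 lay higher and 6 lower (median -0.06). At an unadjusted p under 0.05, 1 of 10 lay higher, against 9.11% of all tested genes. Without mCherry 1 the split was 6 and 4 (median 0.03), and without mCherry 3 likewise 6 and 4 (median 0.11). Bnip3l, a receptor for removal of mitochondria that is known to act in maturing red cells, had 42.4, 47.8 and 47.4 FPKM in hND6, against 37.3, 37.9 and 32.2 FPKM in mCherry. Its log2 fold change was 0.35 (limma adjusted p = 0.207), higher in 3 of 3 hND6 libraries, as were 12.6% of all tested genes. The erythroid markers moved the same way, and their part was not tested. Bak1, the other pore-forming effector beside Bax, had 8.97 ± 0.748 FPKM (SD, n = 3) in hND6, against 7.60 ± 0.655 FPKM (SD, n = 3) in mCherry (limma adjusted p = 0.381). Bid, which links death receptors to mitochondria, had 1.68 ± 0.528 FPKM (SD, n = 3) in hND6, against 2.48 ± 0.757 FPKM (SD, n = 3) in mCherry (limma adjusted p = 0.459).

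Of the 6 other pro-survival genes 3 were tested and none passed. The log2 estimates of all 3 were above 0 (median 0.14, 0.67 without mCherry 1 and 0.0048 without mCherry 3), although Bcl2a1a, the median gene, averaged 1.46 FPKM in hND6, against 1.62 FPKM in mCherry. On the TPM scale, without mCherry 2, without mCherry 3 and with the span trend removed 2 of 3 were above 0. Mcl1, a short-lived pro-survival protein, had 43.7 ± 5.72 FPKM (SD, n = 3) in hND6, against 40.9 ± 8.81 FPKM (SD, n = 3) in mCherry (limma adjusted p = 0.806), and stood highest after Bcl2l1 among the pro-survival genes tested. Bcl2a1d (adjusted p = 0.609) and Bcl2a1a (adjusted p = 0.918) are near-identical copies, so their counts are uncertain. Bcl2l2 lies within another gene on its strand, Gm20521, in the deposited gene table, and its level of at most 0.0117 FPKM is not read as absence.

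Genes of caspase activation and of death receptors lay close to the median of all genes. Of 18 apoptosome, caspase and inhibitor genes, all tested, 11 lay higher and 7 lower (median 0.04), and none passed. At an unadjusted p under 0.05, 2 lay lower, against 6.05% of all tested genes. None did so when any 1 hND6 library or mCherry 2 was left out, or with the span trend removed. Counted in either direction, the number rose to 5 without mCherry 3, to 4 on the TPM scale and to 3 without mCherry 3 and hND6 1 together. On the TPM scale 4 of 18 lay higher (median -0.09). Apaf1, the scaffold of the apoptosome, had 3.45, 3.32 and 3.45 FPKM in hND6, against 5.02, 4.06 and 4.06 FPKM in mCherry, lower in 3 of 3 hND6 libraries (log2 fold change -0.31, limma adjusted p = 0.317). Birc6, a large inhibitor of apoptosis, had 15.2 ± 0.565 FPKM (SD, n = 3) in hND6, against 17.9 ± 0.985 FPKM (SD, n = 3) in mCherry (limma adjusted p = 0.279). Aifm1, a mitochondrial flavoprotein, had 11.02 ± 0.771 FPKM (SD, n = 3) in hND6, against 12.8 ± 0.827 FPKM (SD, n = 3) in mCherry (limma adjusted p = 0.356). Apaf1 spans 93453 bases and Birc6 175062 bases.

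Of 11 death receptor genes 10 were tested, 6 lay higher and 4 lower (median 0.05), and none passed. On the TPM scale 4 of 10 lay higher (median -0.09). Fadd, the adaptor of death receptors, had 2.59, 3.72 and 2.58 FPKM in hND6, against 2.22, 1.99 and 2.04 FPKM in mCherry (limma adjusted p = 0.335). Ngfr, the p75 neurotrophin receptor, had 3.39, 4.83 and 4.20 FPKM in hND6, against 2.38, 3.22 and 3.28 FPKM in mCherry (adjusted p = 0.337). Fadd and Ngfr were higher in 3 of 3 hND6 libraries, as were 12.6% of all tested genes. Ripk1, a kinase of survival and death signalling, had 5.01 ± 0.505 FPKM (SD, n = 3) in hND6, against 5.98 ± 0.889 FPKM (SD, n = 3) in mCherry (limma adjusted p = 0.492).

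**Figure D5:**
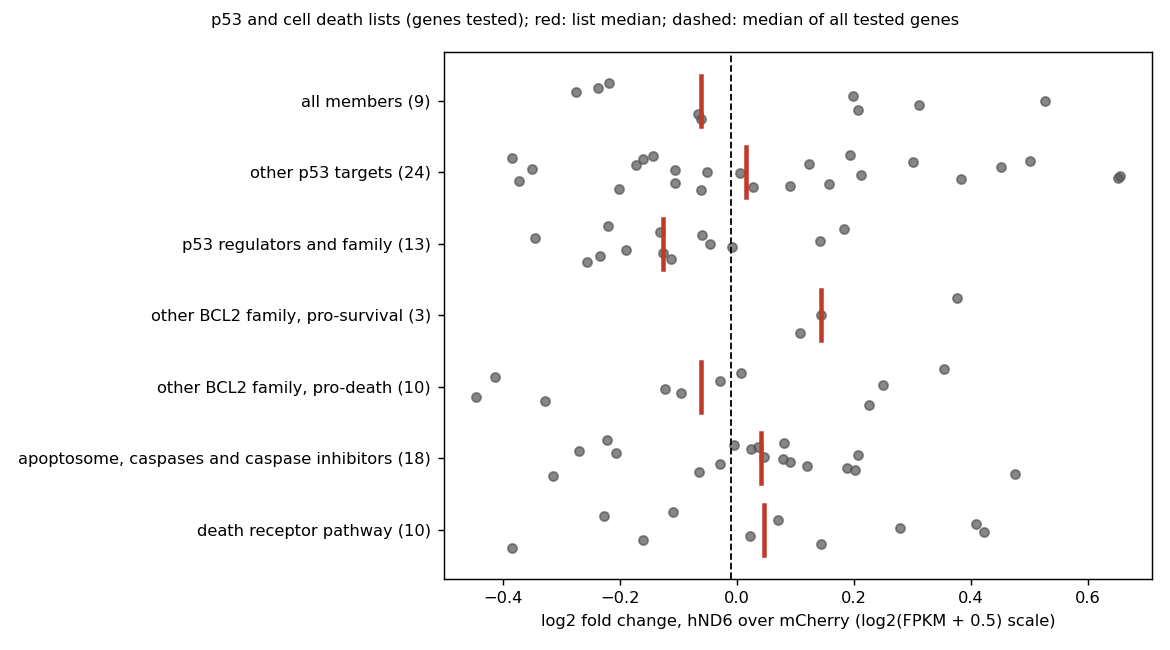
Log2 fold change, hND6 over mCherry, of each tested gene (grey points) in the members and 6 other lists, with the number tested after each name; red bars are list medians and the dashed line is the median of all tested genes (-0.01). List medians run from -0.13 for p53 regulators to 0.14 for the other pro-survival genes.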

How the data were processed

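Optic nerve RNA of 3 hND6 and 3 mCherry libraries was sequenced after ribosomal RNA depletion with a TruSeq Stranded Total RNA kit, per the labels. The deposited values are FPKM made by the authors, per the labels, and the gene table gives symbols, positions and exon lengths on mm10. Tools listed without roles in the submitters' processing notes are CASAVA 1.4, Trim Galore, STAR and HTSeq. How HTSeq treated strand and overlaps was not stated there. The 6 single-library tables equal the combined one. Multiplied by exon length, at least 99.99% of values above 0 came out as whole reads (within 0.1 read). Recovered reads came to 34057700, 20253600 and 22045300 in hND6 1 to 3 and 30500500, 34758900 and 25718400 in mCherry 1 to 3. Genes averaging 0.5 FPKM or more were fitted with limma 3.58.1 in R 4.3.3 on log2(FPKM + 0.5) with an intensity trend, after a test on simulated data; this scale understates changes of low genes. From each other list the 3 tested genes of smallest p are named; Gdf15 and Bcl2l2 were chosen after their values were seen. Members and lists were chosen with earlier results of these data known, and lists are described by counts and medians without a set test. Motif windows come from RefSeq. Alternatives are given in the closing section.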

Additional observations from a re-analysis of the deposited data

How the results depend on the processing

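No member passed the threshold in any of the 17 alternatives run, and 151 of 153 member fold changes kept their sign, with adjusted p from 0.0823 upward. The 2 that turned were Trp53 (0.064 without mCherry 1, -0.16 without mCherry 3) and Mdm2 (0.0091 without mCherry 2, -0.11 without mCherry 3); the cause was not tested. Both ratios of Bax kept their sign, over 0.11 to 0.79 for Bcl2 and 0.20 to 0.79 for Bcl2l1 with 1 library left out. Neither ratio was computed with the span trend removed. Over all genes, 7 passed as higher and 0 as lower (1472 higher and 978 lower at an unadjusted p under 0.05). On the TPM scale 7 and 0 passed, but the unadjusted balance turned, to 544 higher and 2185 lower. As higher, 1 passed with no filter, 0 with the replicate block, 0 with voom on recovered reads (1466 higher and 996 lower unadjusted), and 1 without mCherry 3 and hND6 1 together. With 1 library left out 0 to 116 passed as higher and 0 to 15 as lower, with 0 higher without mCherry 2, 1 without hND6 1 or mCherry 1, 2 without hND6 2 and 116 higher and 15 lower without mCherry 3. No common pairing by replicate number was seen. Same-numbered deviations from the group means correlated at -0.42, 0.36 and -0.20, and hND6 1 correlated best with mCherry 3, at 0.56. Centring within groups of 3 ties these values to each other, so they cannot tell whether libraries were handled in pairs. A planned quasi-likelihood count test on recovered reads was not run, since the deposited unit is FPKM. The 95% intervals of the 9 tested members were narrowest for Mdm2 (-0.31 to 0.17) and widest for Bcl2l1 (-0.83 to 0.39). They are not adjusted for the number of genes and do not mark the smallest difference that 3 against 3 libraries could detect. The interval of Phlda3 (0.15 to 0.90) did not cross 0, and Phlda3 was still not called. Depth limited Pmaip1 most, at 17 to 82 reads.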

Other observations

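Library mCherry 1 stood at an edge of the 6 for 6 of the 10 genes: it was highest for Trp53, Bbc3, Pmaip1 and Bcl2 and lowest for Phlda3 and Bax. This was seen after the values were known, and the share of all tested genes with mCherry 1 at an edge was not counted. Among list genes outside the naming rule, chosen after their values were seen, the p53 targets Sesn1 (26.4 FPKM in hND6, 30.6 FPKM in mCherry), Ei24 (27.1 FPKM in hND6, 23.4 FPKM in mCherry) and Zmat3 (8.92 FPKM in hND6, 9.36 FPKM in mCherry; means, n = 3 each) did not pass the test. Btg2, an antiproliferative gene, averaged 14.5 ± 6.57 FPKM (SD, n = 3) in hND6, against 8.76 ± 3.35 FPKM (SD, n = 3) in mCherry, at an adjusted p = 0.518 by limma. Fas, a death receptor and p53 target, averaged 13.02 ± 1.44 FPKM (SD, n = 3) in hND6, against 19.3 ± 10.8 FPKM (SD, n = 3) in mCherry (limma adjusted p = 0.709).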
